A study of Homo sapiens with 12 samples.

Results

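The comparison described here sets extracellular vesicles (EVs) against the cells that released them, in a line of MDA-MB-231 carrying a knockdown of RAB27A. MDA-MB-231 is a human triple-negative breast cancer line of mesenchymal type. The libraries were chosen by their column names, which give knockdown line, fraction and replicate, and they are 2 cell libraries and 2 EV libraries of the 12 in the series. All 2588 miRNA entries of the table were considered, of which 1160 had a count in at least 1 of these 4 libraries and 574 were tested. The knockdown was made by lentiviral transduction of a single short hairpin RNA clone, so the line rests on 1 hairpin sequence. The other libraries come from a control line that received the empty lentiviral vector and from a line whose miR-122 gene was knocked out by CRISPR-Cas9 with 2 guide RNAs, each with 2 cell and 2 EV libraries. All lines were grown with 10% fetal bovine serum and then kept for 24 h in serum-free medium that held 1% bovine serum albumin. The conditioned medium was cleared at 500 g and 10000 g, EVs were pelleted and washed at 110000 g, and the producing cells were taken at the same time. RNA came from cells by Trizol and from EVs by Trizol LS, and inserts of 17 to 52 nt were selected. The replicates are numbered, but whether they came from separate cultures is not stated. The p-values therefore cover only the spread among these libraries, which may be technical.

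RAB27A, a GTPase of the Rab family, brings multivesicular bodies to dock beneath the cell surface, where their fusion releases exosomes, a small class of EV. Other vesicles bud from the plasma membrane itself, and an ultracentrifuge pellet holds both kinds together with other RNA-bearing particles. A miRNA precursor yields a duplex of which the guide strand is loaded into an Argonaute protein and the passenger strand is mostly degraded. The guide finds its targets through its seed, bases 2 to 8.

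The mature sequences below belong to the families and entries that carried the largest differences between EVs and cells. They are shown so that shared seeds can be seen, and they come from RefSeq (GRCh38.p14), written 5′ to 3′ with the seed in capitals. A RefSeq sequence was matched to 506 of the 574 tested entries.

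miR-320b: aAAAGCUGgguugagagggcaa
miR-320c: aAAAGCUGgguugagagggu
miR-320d: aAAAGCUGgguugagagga
miR-100-5p: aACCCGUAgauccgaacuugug
miR-99a-5p: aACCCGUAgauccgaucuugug
miR-99b-5p: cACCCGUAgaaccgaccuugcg
miR-125a-5p: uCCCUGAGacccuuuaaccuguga
miR-125b-5p: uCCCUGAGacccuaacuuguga
let-7a-5p: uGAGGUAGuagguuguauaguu
miR-221-3p: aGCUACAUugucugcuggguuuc
miR-222-3p: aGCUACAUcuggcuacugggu
miR-222-5p: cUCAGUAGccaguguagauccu
miR-15b-5p: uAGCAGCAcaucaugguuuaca
miR-15b-3p: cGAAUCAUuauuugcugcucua
miR-181a-5p: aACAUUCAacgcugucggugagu
miR-7704: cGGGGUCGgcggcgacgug
miR-1246: aAUGGAUUuuuggagcagg
miR-4516: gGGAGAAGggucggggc
miR-6126: gUGAAGGCccggcggaga
miR-4521: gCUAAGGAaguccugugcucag

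Here miR-320b, miR-320c and miR-320d share 1 seed and differ only towards the 3′ end. miR-100-5p, miR-99a-5p and miR-99b-5p share another, as do miR-125a-5p with miR-125b-5p and miR-221-3p with miR-222-3p. miR-7704, miR-1246, miR-6126 and miR-4516 are shown as entries far higher in EVs, and miR-4521 as one far lower. miR-6087, miR-4508 and miR-4532 are named in the results without a sequence.

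The knockdown cells held 3159478 and 3140610 counts and their EVs 164656 and 170366, the fewest of the series. Levels are in CPM, a library's counts divided by its total and brought to 1 common sum, so 1 count was worth 0.317 and 0.318 CPM in the cell libraries and 6.07 and 5.87 CPM in the EV libraries. A level is a share of the counted miRNAs in a library: fewer vesicles and less RNA per vesicle cannot be told apart in it. The cell libraries held 957 and 936 miRNAs with a count, and the EV libraries 485 and 491. Thinned to the depth of the shallowest library, the cells would be expected to show 429 and 425 miRNAs and the EVs 485 and 486. Of miRNAs known to be abundant in MDA-MB-231, the list of miR-21-5p, miR-100-5p, miR-221-3p, miR-222-3p and miR-29b-3p summed to 553500 and 545300 CPM in cells and to 454400 and 465200 in EVs. The epithelial miRNAs miR-141, miR-200a, miR-200b, miR-429 and miR-375, expected to be scarce in this line, summed to 304 and 308 CPM in cells and 377 and 370 in EVs. RAB27A mRNA is not measured by these libraries, so the knockdown itself could not be checked.

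Across the tested miRNAs, 111 of 574 differed between knockdown EVs and cells (19.3%) by edgeR's quasi-likelihood test at a Benjamini-Hochberg adjusted p of 0.05. Of these, 42 were higher in EVs (7.32%) and 69 lower (12%). A difference of at least 4-fold was called for 36 (6.27%), with 21 higher (3.66%) and 15 lower (2.61%). The median log2 change over all tested miRNAs was −0.11. These changes are scaled by TMM factors, which were 1.31 and 1.33 in the EV libraries and 0.941 and 0.958 in the cells. With library totals in place of TMM every log2 change moved up by 0.47 and the calls became 99 higher and 32 lower. DESeq2, with its own size factors, gave 55 higher and 48 lower. Because library totals move every change up, the 42 miRNAs called higher could only move further from 0, and their staying called is no check. Of the 69 called lower, 32 stayed called, and 6 turned to a positive sign without being called higher. A small difference is therefore relative to the other miRNAs of the library, and a call under about 0.5 on the log2 scale can have CPM that point the other way.

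**Figure D1:**
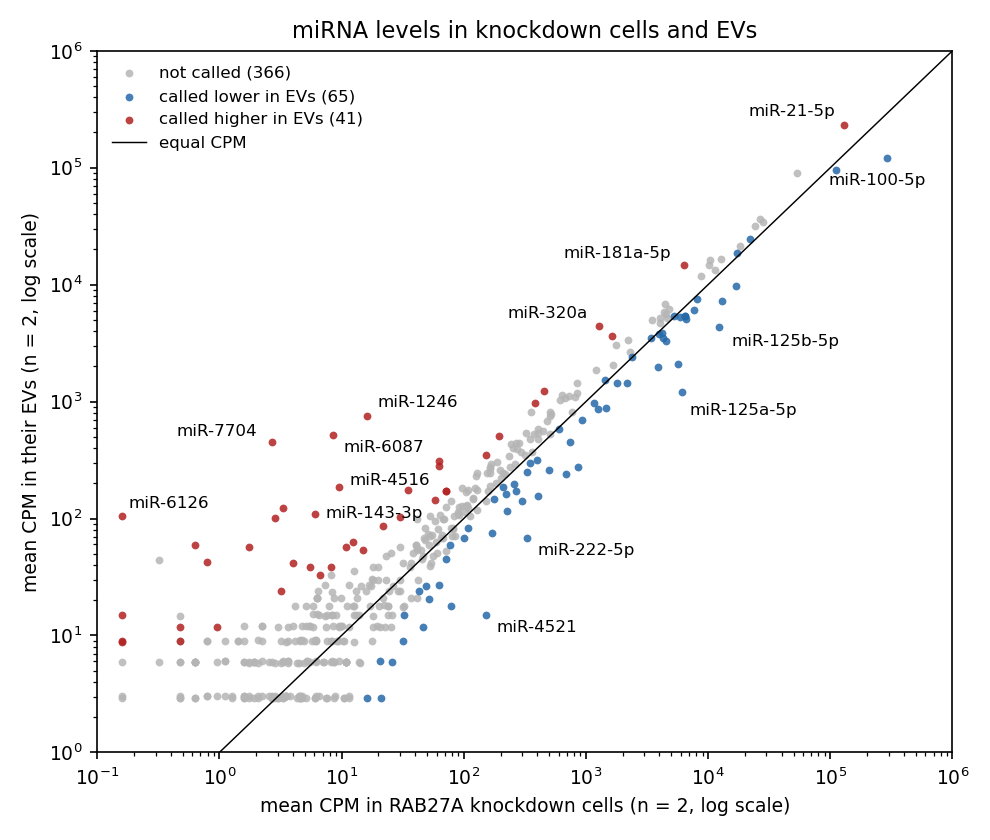
Mean CPM of each tested miRNA in RAB27A knockdown cells (horizontal) and in their EVs (vertical), both on log scales, with 2 libraries per fraction. The plot holds the 472 miRNAs with a count in both fractions, of which 41 were called higher in EVs (red) and 65 lower (blue). The black line marks equal CPM, and the rows of points at the bottom are miRNAs with 1 to a few counts in the shallow EV libraries.

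The largest differences were entries nearly absent from cells and common in EVs, most of them entries whose annotated sequences overlap other abundant RNAs such as ribosomal, transfer or small nuclear RNA. miR-7704 stood at 3.17 and 2.23 CPM in cells and at 377 and 522 CPM in EVs. Both EV libraries lay far above both cell libraries, with a log2 change of 6.89 (SE 0.32, edgeR adjusted p = 2.54e-24). miR-6087 was at 8.86 and 8.28 CPM in cells against 480 and 558 in EVs (log2 change 5.44, SE 0.27, edgeR adjusted p = 4.46e-23). miR-1246, whose sequence matches part of the U2 small nuclear RNA, was at 16.8 and 15.3 CPM in cells against 741 and 775 in EVs (log2 change 5.09, SE 0.21). In all 3 the libraries of the 2 fractions did not overlap. Within a fraction the 2 libraries lay further apart for miR-7704, on 10 and 7 cell counts and 62 and 89 EV counts, than for miR-6087 and miR-1246.

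miR-6126 had 0 and 1 counts in the cell libraries against 14 and 21 in the EV libraries. From so few counts in cells the ratio of pooled levels was 658, with a 95% exact binomial counting interval of 111 to 26730. miR-4497, miR-4488, miR-4508 and miR-4532 had log2 changes of 6.02, 4.71, 4.66 and 4.53, and each had at most 21 counts over both cell libraries. The value of miR-4497 was 4.89 without the second EV library, in which it stood at 88.1 CPM against 30.4 in the first, and it was 5.27 or 6.91 when 1 cell library was left out. miR-4516 went from 10.1 and 8.92 CPM to 152 and 217 (log2 change 3.80, SE 0.36).

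Taken as a list, entries that overlap other abundant RNAs numbered 18 among the tested, of which 10 were higher in EVs and 1 lower. Over all tested miRNAs 7.32% were higher and 12% lower. The median log2 change of the list was 3.39 against −0.11 over all tested. The list was drawn up with earlier results of these data known. Some tested entries were rare in cells and could pass the filter through EVs, such as miR-7641, with 3 and 2 counts in cells and 10 and 4 in EVs. The share called higher and the median of the list are therefore only a description. With the untested entries, all 33 of the list summed to 303 and 331 CPM in cells and 2502 and 2794 CPM in EVs. The exception that was called lower was miR-1260a, whose sequence matches a transfer RNA, with 22 and 37 counts in cells and none in EVs. The depth of the EV libraries allows only the bound of at least 1.05-fold lower for it, and the call was lost under several alternatives, among them without either EV library. Whether the reads of these entries come from miRNAs or from fragments of the overlapping RNAs was not tested.

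The miR-320 family was the clearest group of annotated miRNAs that was higher in EVs. miR-320a, which is cut from a capped precursor without the nuclear enzyme Drosha, was its most abundant member at 1305 and 1245 CPM in cells and 4027 and 4796 CPM in EVs. Its log2 change was 1.32 (SE 0.12, edgeR adjusted p = 3.93e-13), and the fractions did not overlap. miR-320b went from 65.5 and 60.2 CPM to 292 and 335 (log2 change 1.84, SE 0.21, edgeR adjusted p = 4.37e-10).

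miR-320c and miR-320d were rarer, with 35 and 25 counts over the cell libraries and 13 and 14 over the EV libraries. They had log2 changes of 2.32 and 2.91, and that of miR-320d lay between 2.13 and 3.90 when 1 cell library was left out. miR-320c was no longer called without the second EV library. These 4 sequences are alike over most of their length, so reads can be shared among them, and they are not 4 independent measurements. miR-484, also made from a capped precursor independently of Drosha and listed with them, differed in the other direction: 660 and 714 CPM in cells against 237 and 241 in EVs (log2 change −2.0, SE 0.18, edgeR adjusted p = 1.67e-13).

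**Figure D2:**
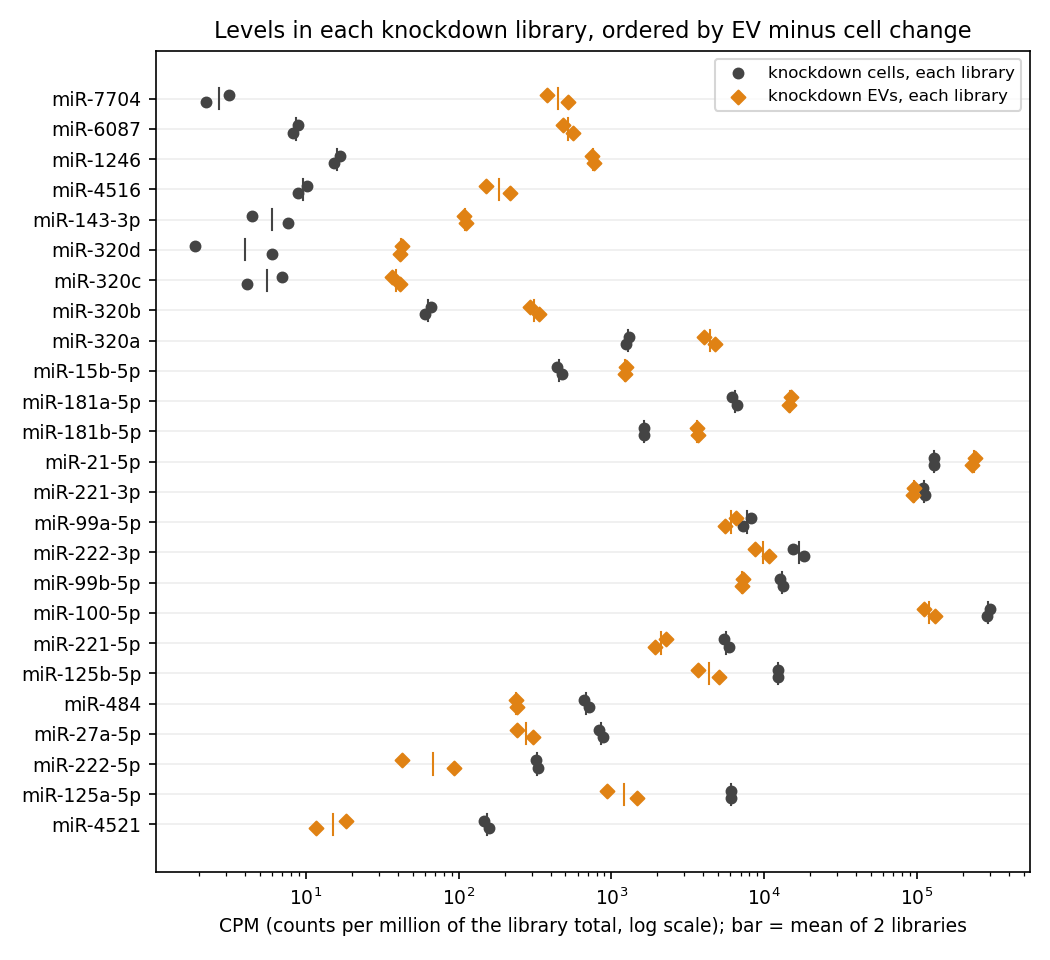
CPM in each library for 25 miRNAs, on a log scale, ordered from the largest positive to the largest negative EV minus cell change. Grey circles are the 2 knockdown cell libraries, orange diamonds the 2 knockdown EV libraries and vertical bars their means. For miR-7704, miR-6087 and miR-1246 the fractions are separated by over a decade, while for miR-99a-5p and miR-221-3p they lie close together.

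Several abundant guide strands were also higher in EVs. miR-181a-5p, known from lymphocyte development, stood at 6152 and 6653 CPM in cells and 15030 and 14620 in EVs (log2 change 0.74, SE 0.11, edgeR adjusted p = 5.17e-07). miR-181b-5p, with the same seed, went from 1628 and 1644 to 3608 and 3680 CPM (log2 change 0.68, SE 0.12). Of the 4 tested miRNAs with this seed 2 were called higher, against 7.32% over all tested, and miR-181d-5p was not called (log2 change 0.24, SE 0.23). Of all 9 tested strands of the family, passengers included, 2 were higher, 1 was lower and 6 were not called, with a median of −0.43.

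miR-15b-5p, of a family that represses cyclins, went from 438 and 476 CPM to 1245 and 1221 (log2 change 0.96, SE 0.15, edgeR adjusted p = 1.09e-06). Its family did not share that difference: of 6 tested miRNAs with its seed, miR-424-5p was called lower (−0.52, SE 0.16) and miR-16-5p, the most abundant, was not called (0.16, SE 0.12). The call of miR-424-5p was lost under each other scaling and without EV replicate 1 or cell replicate 2. miR-152-3p was higher (0.89, SE 0.18), while miR-148a-3p and miR-148b-3p, which share its seed, were lower (−0.58 and −0.44). With library totals neither of those 2 was called, at −0.10 and 0.04.

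miR-21-5p, an abundant miRNA tied to many cancers, was the first-ranked miRNA of the EV libraries at 238600 and 229500 CPM, 23.9% and 22.9% of all counts. It stood at 129100 CPM in both cell libraries. The change was small on the scaled log2 axis (0.38, SE 0.11, edgeR adjusted p = 0.00846), and its call was lost when either EV or either cell library was left out. miR-146a-5p, a feedback inhibitor of NF-kappa B signalling, stood at 90270 ± 11610 CPM in EVs and 53400 CPM in cells (means, the first with its SD, n = 2), and was not called (0.28, SE 0.11, edgeR adjusted p = 0.0662).

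The rest of the called higher miRNAs had lower levels. miR-23a-5p, the passenger strand of a miRNA from the miR-23a cluster, went from 71.2 and 55.1 CPM to 292 and 276 (log2 change 1.69, SE 0.23). miR-629-5p went from 41.5 and 28.3 to 170 and 182 (1.86, SE 0.26), and miR-185-5p from 392 and 381 to 1039 and 916 (0.86, SE 0.15). miR-193b-3p (1.52), miR-887-3p (1.86) and miR-4284 (1.89) were also higher, and each rested on 19 to 29 EV counts.

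The miRNAs lower in EVs were led by the miR-99/100 and miR-125 families, the most abundant miRNA group of the cells. miR-100-5p, which represses the kinase MTOR, made up 30.0% and 28.5% of all counts in the cell libraries, at 300100 and 285300 CPM. In EVs it stood at 110500 and 130100 CPM, giving a log2 change of −1.76 (SE 0.12, edgeR adjusted p = 4.66e-18). Both EV libraries lay well below both cell libraries, and the entry ranked second in EVs, behind miR-21-5p.

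miR-125a-5p was the most reduced abundant miRNA, from 6080 and 6056 CPM in cells to 941 and 1479 in EVs (log2 change −2.80, SE 0.15, edgeR adjusted p = 2.86e-22). miR-125b-5p, a paralog with the same seed, went from 12390 and 12330 CPM to 3686 and 5030 (−1.98, SE 0.12). miR-99b-5p went from 12760 and 13270 to 7227 and 7179 CPM (−1.33, SE 0.12) and miR-99a-5p from 8129 and 7242 to 6529 and 5564 (−0.82, SE 0.12). All 5 guide strands were called lower in each of the 22 alternatives. Over the list of 11 tested strands, 5 were lower and 1 higher, against 12% and 7.32% over all tested, with a median of −0.82.

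These miRNAs sit in 3 genomic clusters together with let-7 members, and within a cluster the strands differed in size of change. On chromosome 11 (GRCh38.p14, minus strand), MIR100 (hairpin at 122152229 to 122152308), MIRLET7A2 (122146522 to 122146593) and MIR125B1 (122099757 to 122099844) span 52552 bases. Their strands miR-100-5p and miR-125b-5p, the latter also encoded by MIR125B2 on chromosome 21, were lower by the amounts above. let-7a-5p, which other loci also encode, was not called (−0.25, SE 0.12). On chromosome 19 (plus strand), MIR99B (51692612 to 51692681), MIRLET7E (51692786 to 51692864) and MIR125A (51693254 to 51693339) lie within 728 bases. Their guide strands had log2 changes of −1.33, −0.38 and −2.80, and the middle value, let-7e-5p, was not called. The remaining cluster, on chromosome 21, holds MIR99A, MIRLET7C and MIR125B2. There miR-99a-5p was at −0.82, while let-7c-5p (0.28) and miR-125b-2-3p (−0.19) were not called.

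The let-7 family, which targets RAS and the reprogramming factor LIN28, had a median log2 change of −0.04 over its 9 tested guide strands, against −0.11 over all tested. Of these strands 2 were called lower and none higher, against 12% lower over all tested. Their summed level was 73510 and 75350 CPM in cells and 86020 and 102000 CPM in EVs. The called members, let-7f-5p (−0.33) and miR-98-5p (−0.38), turned to 0.14 and 0.10 with library totals.

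miR-221 and miR-222, which repress the cell cycle inhibitor p27, were the list in which all tested strands were lower in EVs, 4 of 4. Their median was −1.58, and 12% of all tested miRNAs were called lower. The guide miR-221-3p, among the 3 most abundant miRNAs of either fraction, went from 108800 and 112400 CPM to 96120 and 94460 (log2 change −0.69, SE 0.11, edgeR adjusted p = 2.19e-06). It was not called with library totals (−0.21). miR-222-3p went from 15320 and 18310 to 8715 and 10790 CPM (−1.26, SE 0.12).

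Their passenger strands differed more. miR-221-5p went from 5433 and 5837 CPM to 2271 and 1931 (−1.90, SE 0.14, edgeR adjusted p = 1.95e-16). miR-222-5p went from 323 and 332 CPM to 42.5 and 93.9 (−2.73, SE 0.26, edgeR adjusted p = 1.08e-12), on 7 and 16 EV counts, and stood at −3.58 without the second EV library. The hairpins MIR221 and MIR222 lie 968 bases end to end on the minus strand of chromosome X, from 45746157 to 45747124.

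**Figure D3:**
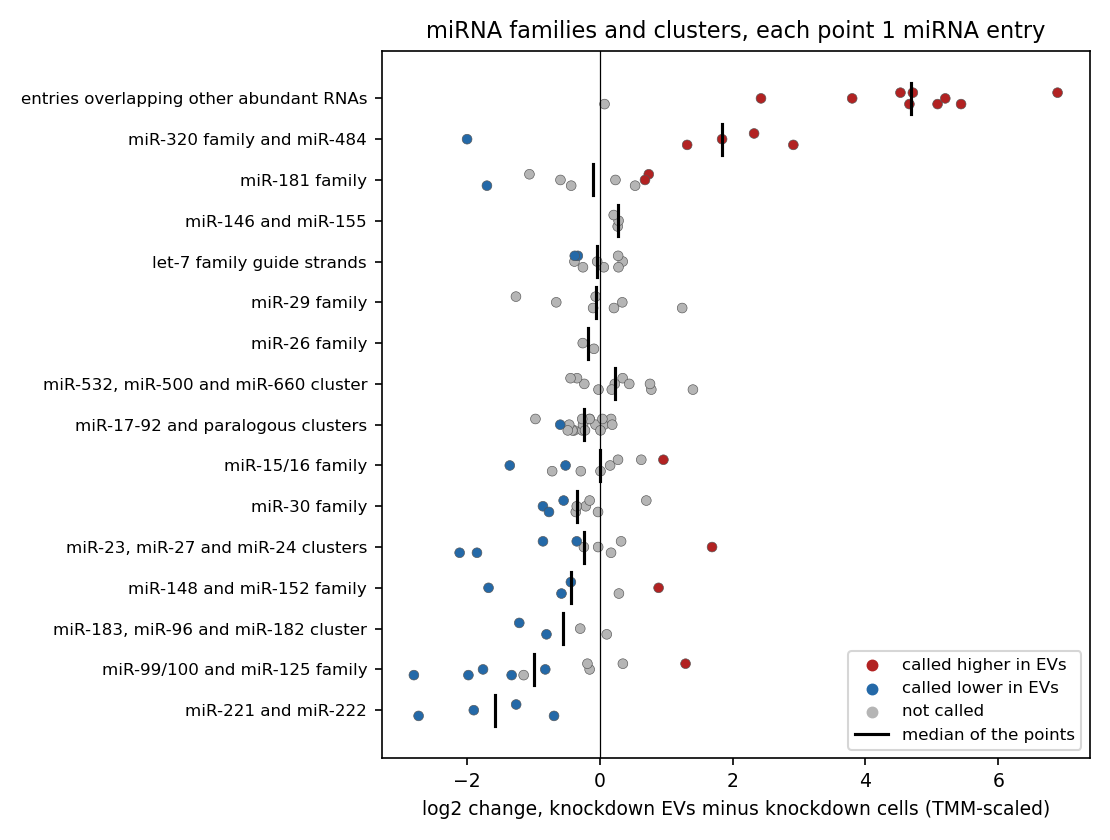
Log2 change between knockdown EVs and cells for the members of 16 families and clusters, 123 points in all, each a miRNA entry with more than 3 counts in both fractions. Red points were called higher in EVs, blue points lower, grey points neither, and the black bar is the median of the points. The entries overlapping other RNAs and miR-320 lie to the right, miR-221 and miR-222 to the left, and most other groups straddle 0.

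The strands of a precursor were compared next. Guides and passengers were assigned by their counts in the control cells. These are not among the 4 libraries compared, though the filter, the scaling and the estimate of spread used all 12 libraries. Of 172 precursors with both strands tested, 18 passengers were called lower and 4 higher, and 38 guides lower and 14 higher. Over all tested miRNAs 12% were called lower and 7.32% higher. A guide was counted once for each of its precursors, so the guide counts exceed the number of distinct guides. Among the called guides this holds for let-7f-5p, miR-125b-5p, miR-30c-5p, miR-181a-5p and miR-181b-5p. The passenger change lay below the guide change in 91 of 172, with a median difference of −0.05. Passengers made up 2.0% and 2.06% of the counts of these pairs in the cell libraries and 1.83% and 1.74% in the EV libraries.

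Many passengers are too rare to be seen at the EV depth, and 55 had enough counts in the knockdown cells to give at least 10 EV counts at an equal share. That selection uses the cell side of the comparison, so its counts are a description. Among those, 14 passengers were called lower and 1 higher, and 19 guides lower and 5 higher, against 12% and 7.32% over all tested. Here miR-125b-5p and miR-181a-5p were again counted once for each precursor. The passenger change lay below the guide change in 32 of 55, with a median difference of −0.19, or −0.01 with the stricter filter on low counts. Selected instead by their level in the control cells, 58 precursors had 36 passengers below the guide and a median difference of −0.51, so the median depends on the selection. Passengers made up 3.43% and 3.46% of the counts of the 55 pairs in the cell libraries and 2.33% and 2.29% in the EV libraries. In control cells that share was 3.62% and 3.55% and in control EVs 3.62% and 3.91%. It was also lower in EVs in the knockout line, at 3.37% and 3.19% in cells and 2.95% and 2.80% in EVs. The share leans on abundant strands: miR-221-5p alone had 35499 counts in knockdown cells and 703 in their EVs. Over the 58 pairs it was 2.19% and 2.26% in knockdown cells and 2.05% and 1.94% in their EVs.

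Some passenger strands were far lower in EVs beside guides with small changes. miR-27a-5p went from 832 and 875 CPM to 243 and 305 (log2 change −2.11, SE 0.17, edgeR adjusted p = 1.04e-14), against −0.35 for miR-27a-3p, a regulator of fat cell differentiation. miR-24-2-5p was at −1.85 (SE 0.20) against −0.24 for miR-24-3p, which was not called. miR-93-3p, on 3 EV counts, had a pooled level 3.56 times as high in cells as in EVs, with a 95% exact binomial counting interval of 1.20 to 17.4.

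Guide and passenger were called in opposite directions for 4 precursors. miR-181a-2-3p was lower at −1.70 (SE 0.41) with its guide miR-181a-5p higher. miR-15b-3p was lower at −1.36 (SE 0.45) with miR-15b-5p higher, a call that was lost without either EV library. miR-130b-5p, on 5 EV counts, was lower at −1.59 with miR-130b-3p higher at 0.82, and both calls were lost without EV replicate 1.

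In the remaining one, miR-125a, the directions were the other way round: the 5′ guide fell by 2.80 while the 3′ strand was higher. miR-125a-3p stood at 33.2 and 26.4 CPM in cells and 140 and 64.6 in EVs (1.29, SE 0.33, edgeR adjusted p = 0.00221). It was at 0.45 and not called without the first EV library.

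**Figure D4:**
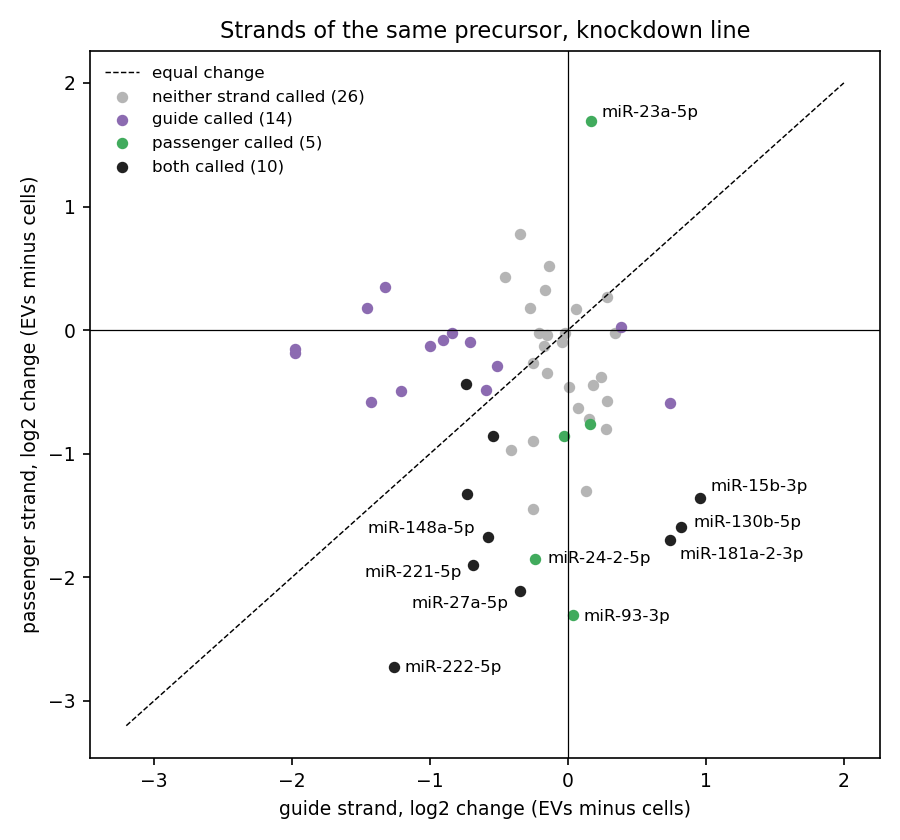
Log2 change between knockdown EVs and cells of the guide strand (horizontal) and the passenger strand (vertical) for 55 precursors, with the dashed line at equal change. Colours give which strand passed the test: neither for 26, the guide alone for 14, the passenger alone for 5 and both for 10. miR-15b-3p, miR-130b-5p and miR-181a-2-3p sit at the lower right, with the guide higher in EVs and the passenger lower.

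Other reduced miRNAs ranged over many levels. miR-4521 had the largest fitted decrease of those with more than 3 EV counts, from 147 and 159 CPM to 18.2 and 11.7 (log2 change −3.83, SE 0.41, edgeR adjusted p = 6.75e-11), on 3 and 2 EV counts. miR-4326 went from 76.3 and 79.6 CPM to 12.1 and 23.5 (−2.60, SE 0.45), and miR-3940-3p from 52.2 and 40.4 to 6.07 and 17.6 (−2.43, SE 0.59). Without the second EV library they stood at −3.32 and −3.56. miR-340-3p, on 2 EV counts, had a pooled level 4.36 times as high in cells, with a counting interval of 1.19 to 36.3. The imprecision of these values comes with the EV depth, where each count is worth about 6 CPM.

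Of other clusters, miR-182-5p and miR-183-5p, from a sensory-organ cluster often raised in carcinomas, were lower (−0.80, SE 0.13 and −1.21, SE 0.15), and miR-96-5p of the same cluster was not called (0.10, SE 0.15). miR-10a-5p, which lies among the HOXB genes, was lower (−1.06, SE 0.13). Of the miR-30 family, 4 of 11 tested strands were lower and none higher by TMM scaling, against 12% and 7.32% over all tested. They included miR-30d-5p (−0.77, SE 0.12) and miR-30c-5p (−0.55, SE 0.13), where library totals move every change up by 0.47. Another, miR-30b-3p, rested on 2 EV counts. Its pooled level was 3.46 times as high in cells, with an exact binomial counting interval of 0.94 to 28.8. The summed level of the family was 42090 and 43380 CPM in cells and 50770 and 47710 CPM in EVs. miR-30a-5p, the most abundant strand of the family at 28370 CPM in cells and 34040 in EVs, was not called (−0.21, SE 0.11).

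Among the miRNAs called lower, 4 had no count in either EV library. The EV floor of 3 counts over both libraries is 8.96 CPM, so miR-98-3p was at least 1.58-fold lower in EVs and miR-26a-2-3p at least 1.56-fold. The other 2 were miR-7973, at least 1.19-fold lower, and miR-1260a. All 4 calls were lost without either EV library. In all, 97 tested miRNAs had no count in EVs and 40 had none in cells, 35 of them with none in any of the 4 libraries.

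The sequences of the called miRNAs were compared with those of all tested miRNAs as a description. The letters GGAG, a motif described in miRNAs exported in exosomes, were searched on the mature strand among the 495 distinct sequences. They occurred in 7 of 33 sequences higher in EVs (21.2%), in 1 of 60 lower in EVs (1.67%) and in 47 of all 495 (9.49%). Without the entries overlapping other RNAs they occurred in 5 of 28 higher sequences (17.9%). The letters GGCU, another motif described for export, occurred in 12.1% of the higher, 13.3% of the lower and 12.3% of all. Median GC content was 50% for higher, 47.8% for lower and 47.8% for all sequences. Across the 495 miRNAs Spearman's rho between GC content and log2 change was 0.06, and these miRNAs share libraries and scaling.

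The same EV minus cell difference was then compared between lines by an interaction term, which tests the difference between the changes. Against the control line, 107 of 574 miRNAs differed (18.6%), 25 with a higher change in the knockdown line (4.36%) and 82 with a lower one (14.3%). With library totals the split was 60 higher and 54 lower, and with DESeq2 45 higher and 89 lower. Among marker miRNAs of other cell types, the change was lower in the knockdown line for 1 of 5 erythroid, 2 of 5 leukocyte and 4 of 8 stroma entries tested. It was lower for 2 of 2 endothelial entries, both strands of miR-126, and 2 of 3 liver entries tested, against 14.3% over all tested. Several of these entries, such as miR-223-3p and miR-150-5p, had no count in the 4 knockdown libraries and passed the filter through other libraries. Leukocyte entries summed to 2013 and 1789 CPM in control EVs. The filter itself thus favoured a lower change in the knockdown line, and these counts are only a description.

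miR-126-3p, an endothelial miRNA, stood at 119 and 129 CPM in knockdown cells and 182 and 182 in their EVs, with a log2 change of 0.08. In the control line it went from 73.0 and 71.1 to 1363 and 1256 CPM, a change of 4.05, and the lines differed by −3.97 (SE 0.23, edgeR adjusted p = 8.61e-20). miR-143-3p, known from smooth muscle and fibroblasts, was higher in knockdown EVs, at 109 and 112 CPM against 4.43 and 7.64 in cells (log2 change 3.71, SE 0.42). It was higher still in control EVs, at 2543 and 2674 CPM, so that the lines differed by −4.61 (SE 0.45).

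Liver-specific miR-122-5p had 39 and 40 counts in knockdown cells and 7 and 5 in their EVs, 12.3 and 12.7 CPM against 42.5 and 29.3. That difference was not called (1.04, SE 0.49, edgeR adjusted p = 0.145). In the control line the change was 9.30, from 9 cell counts in all, and the lines differed by −8.26 (SE 0.50).

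Marker lists were read beside these values. Erythroid miRNAs summed to 99.1 and 99.98 CPM in knockdown cells and 158 and 229 in their EVs, against 9515 and 8107 CPM in control EVs. Of the 5 tested 0 were called, against 7.32% called higher and 12% lower over all tested. Most of the knockdown sums was miR-486-5p, at 96.5 and 97.4 CPM in cells and 128 and 129 in EVs. miR-451a had 0 and 2 counts in cells and 5 and 10 in EVs, 30.4 and 58.7 CPM. miR-144-3p had 1 and 2 counts in cells and 0 and 5 in EVs. Leukocyte miRNAs summed to 13.3 and 13.4 CPM in knockdown cells and 12.1 and 35.2 in EVs, all of it from the strands of miR-142. miR-142-3p had 20 and 18 counts in cells and 1 and 2 in EVs, and miR-142-5p 22 and 24 in cells and 1 and 4 in EVs. The other members, among them miR-223-3p and miR-150-5p, had no count in any of the 4 libraries. Stroma miRNAs summed to 13.3 and 16.6 CPM in cells and 115 and 112 in EVs. Nearly all of the EV sum was miR-143-3p, the 1 called member of 8, against 7.32% called higher over all tested. Endothelial miRNAs, both strands of miR-126, summed to 196 and 211 CPM in cells and 231 and 276 in EVs. Liver miRNAs summed to 594 and 625 CPM in cells and 802 and 652 in EVs. Of the 3 liver entries tested 1 was called, lower in EVs, against 12% called lower over all tested. The part of RNA from other cell types or from serum in these differences was not tested.

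Several miRNAs of the tumour cells also changed differently in the 2 lines. miR-222-5p was lower in knockdown EVs while in the control line it stood at 257 CPM in both cell libraries and at 586 and 681 CPM in EVs (line difference −3.89, SE 0.29, edgeR adjusted p = 3.38e-16, and −4.57 without the second knockdown EV library). miR-99a-5p also had a lower change in the knockdown line, with 1.73 in the control line and a line difference of −2.55 (SE 0.17). Its level in cells differed too: the control cell libraries, of 11840597 and 11066570 counts, held 8412 counts of it in all. That is a far smaller share than in the knockdown cells, whose levels are given above. The line difference therefore compares changes and does not show a lower level in knockdown EVs. miR-27a-5p differed by −2.32, miR-125a-5p by −1.81, miR-100-5p by −1.42 and miR-125b-5p by −1.25. In the control line those last 3 had changes of −0.99, −0.34 and −0.73, so the sign was shared and the size differed.

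The change of miR-15b-5p was higher in the knockdown line by 1.28 (SE 0.20) and that of the p53-induced miR-34c-5p by 1.35 (SE 0.19), though miR-34c-5p was not called within the knockdown line (0.12, SE 0.14). For miR-7704, miR-6087, miR-320a and miR-320b the line difference was not called, at −0.30 (SE 0.51), −0.99 (SE 0.49), 0.32 (SE 0.16) and 0.68.

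**Figure D5:**
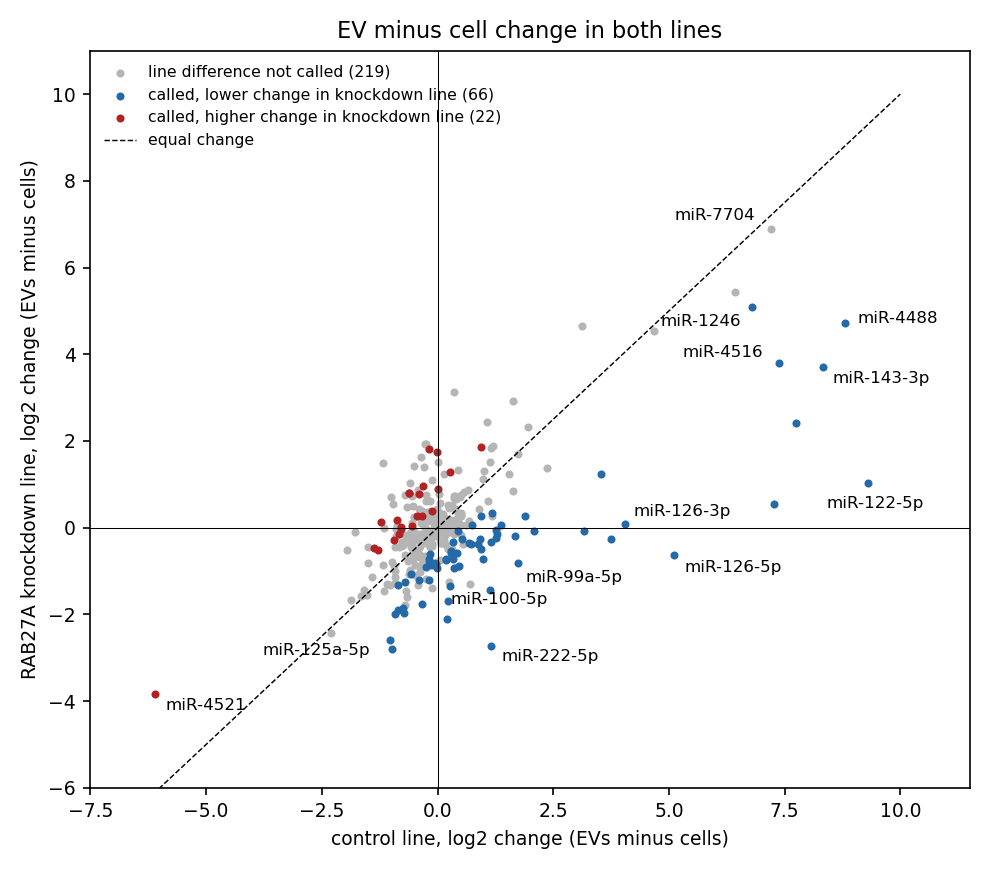
Log2 change between EVs and cells in the control line (horizontal) and in the RAB27A knockdown line (vertical) for the 307 miRNAs with more than 3 counts in each of the 4 groups, with the dashed line at equal change. Blue and red points differed between lines by the interaction test, 66 with a lower and 22 with a higher change in the knockdown line. miR-122-5p, miR-143-3p, miR-126-3p and miR-126-5p lie far to the right of the line, and miR-7704 lies near it.

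Against the miR-122 knockout line, 203 of 574 miRNAs differed in their EV minus cell change (35.4%), 71 with a higher change in the knockdown line (12.4%) and 132 with a lower one (23%). With library totals the split was 85 and 104, and with DESeq2 92 and 97. miR-454-3p, of the miR-130 family, was lower in knockdown EVs by TMM scaling (−0.63, SE 0.11), where library totals move every change up by 0.47. It went from 289 and 310 CPM to 3700 and 3720 in the knockout line, a line difference of −4.05 (SE 0.16, edgeR adjusted p = 1.31e-26). Its level in cells differed too. The list of miR-130, miR-301 and miR-454 summed to 6165 and 6438 CPM in knockdown cells and 533 and 593 in knockout cells. In EVs it summed to 5909 and 6128 CPM in the knockdown line and 4028 and 4056 in the knockout line. The difference thus compares changes and does not show a lower level in knockdown EVs. miR-135b-5p (−3.84, SE 0.28) and miR-484 (−2.57, SE 0.22) differed in the same direction.

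In the other direction, miR-320a differed by 1.73 (SE 0.16): in the knockout line it stood at 2837 and 3299 CPM in cells and 2844 and 2476 in EVs. miR-7704 differed by 2.98 (SE 0.65), with 3.91 in the knockout line. miR-193b-3p differed by 3.73 (SE 0.51), from a change of −2.21 in the knockout line, and by 3.10 without the second knockout cell library.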

How the data were processed

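Small RNA libraries of cells and EVs were compared as deposited. The authors deposited raw counts per mature miRNA, whole numbers without normalization; reads were trimmed and aligned with cutadapt, Bowtie and hg19, per the submitters' processing notes. Versions, mismatches, the miRNA annotation and how multi-matching reads were handled are not given in these sources. Library sizes ran from 164656 to 11840597 counts. The counts were tested with edgeR 4.0.16 (limma 3.58.1, R 4.3.3): filterByExpr by group, TMM factors, robust quasi-likelihood fit on all 12 libraries, contrast of knockdown EVs minus knockdown cells, and interactions with the other 2 lines, with Benjamini-Hochberg adjustment at 0.05. The SE is the change over the square root of F. The test was checked on simulated counts.

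The members, the lists and the naming rule were chosen with earlier results of these data known. The rule took the 15 largest called changes per direction, the 12 most abundant miRNAs, up to 4 members per list, 8 line differences per direction and comparison, and precursors with strands called in opposite directions; miR-185-5p, miR-7973, miR-616-5p and miR-125b-2-3p were added after their values were seen. Alternatives were DESeq2 1.42.0, RLE factors, library totals, other filters, thinning, the 4 knockdown libraries alone, identical entries once (21 tested entries form 8 sets with identical counts), a replicate block and leaving out each library. Reads carry no molecular identifiers, so intervals and floors of 3 counts cover counting error only.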

Additional observations from a re-analysis of the deposited data

Results flagged for a closer look

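The EV minus cell change of the knockdown line differed from that of another line by the interaction test of edgeR for the miRNAs below, the 8 with the largest called differences per direction and comparison. Where a group holds 3 or fewer counts the fitted value depends on the prior count and is no bound.

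Against the control line, the change was lower in the knockdown line, on the log2 scale, for miR-122-5p (−8.26), miR-126-5p (−5.73), miR-143-3p (−4.61), miR-4488 (−4.09), miR-363-3p (−4.01), miR-126-3p (−3.97), miR-222-5p (−3.89) and miR-4516 (−3.57). It was higher for miR-4521 (2.27), miR-3065-3p (2.0), miR-548av-5p (1.76), miR-365a-3p (1.43), miR-34c-5p (1.35), miR-15b-5p (1.28), miR-500a-5p (1.18) and miR-19a-3p (1.05). The value of miR-3065-3p was 0.50 and not called without knockdown EV replicate 1, where it had 54.7 CPM against 11.7 in the other library.

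Against the miR-122 knockout line, the change was lower for miR-222-5p (−5.48), miR-340-3p (−5.42), miR-335-3p (−5.02), miR-590-3p (−4.85), miR-122-5p (−4.38), miR-15b-3p (−4.12), miR-454-3p (−4.05) and miR-135b-5p (−3.84). It was higher for miR-4508 (4.39), miR-193b-3p (3.73), miR-887-3p (3.41), miR-7704 (2.98), miR-210-3p (2.66), miR-629-5p (2.60), let-7f-2-3p (2.58) and miR-320d (2.52). miR-122-5p had no count in knockout cells, and its difference turned to 1.48, not called, when libraries were thinned to the shallowest. miR-210-3p was at 1.38 and not called without knockdown EV replicate 1, and let-7f-2-3p at 3.80 without knockout EV replicate 1, 1.86 without knockout EV replicate 2 and 1.35 without knockout cell replicate 2, the last 2 not called. Without knockdown EV replicate 2 the values were −6.33 for miR-222-5p, −6.15 for miR-335-3p, −5.51 for miR-590-3p and −4.84 for miR-15b-3p. miR-590-3p was also at −5.67 without knockout cell replicate 2, and miR-320d at 1.75 or 3.45 without 1 knockdown cell library.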

How the results depend on the processing

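The scaling and the EV depth set most limits. Of the 111 calls between knockdown EVs and cells, 20 of 42 higher and 27 of 69 lower kept their call in each of the 22 alternatives that tested them. With library totals 99 were higher and 32 lower; with the stricter filter 41 lower; thinned to the shallowest library 70 called, 41 lower. Leaving out 1 library gave 85 to 142 calls, 24 to 44 higher and 58 to 102 lower; without knockdown EV replicate 1 there were 24 higher. For the difference from the control line thinning gave 45 calls, 8 higher and 37 lower; DESeq2 45 higher; the stricter filter 51 higher and 42 lower; library totals 60 and 54; no filter 46 lower. Leaving out 1 library gave 78 to 117, 11 to 34 higher and 66 to 96 lower. For the difference from the knockout line thinning gave 102, 34 higher and 68 lower, and the stricter filter 71 lower; leaving out 1 library gave 156 to 214, 42 to 64 and 114 to 152. The cause of these moves was not tested.

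Most signs that turned belonged to values near 0. With library totals let-7f-5p was 0.14, let-7i-5p 0.43, miR-24-3p 0.24, miR-26a-5p 0.39, miR-27a-3p 0.13, miR-29a-3p 0.37 and miR-30a-5p 0.26. With the stricter filter let-7i-5p was 0.27, miR-24-3p 0.07, miR-26a-5p 0.22, miR-29a-3p 0.21 and miR-30a-5p 0.10, and with thinning let-7i-5p 0.12, miR-26a-5p 0.10 and miR-29a-3p 0.07. With DESeq2 and RLE let-7i-5p was 0.06 in both, miR-26a-5p 0.02 in both and miR-29a-3p 0.0 in both. On the 4 knockdown libraries alone let-7i-5p was 0.10, miR-26a-5p 0.06 and miR-29a-3p 0.04. Leaving out 1 library gave −0.04 to 0.27 for miR-146a-5p, −0.11 to 0.16 for miR-23a-3p and −0.0275 to 0.0917 for the GC rho, each lowest without knockdown EV replicate 1. The difference of miR-122-5p from the knockout line was −4.38 and 1.48 when thinned. Of the called higher miRNAs, miR-616-5p, with 1 cell count and 3 EV counts, all 3 in replicate 2, turned negative without that library. The median passenger difference was −0.51 with passengers selected by control cells and −0.05 with no selection, both chosen after seeing the data.

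Same-numbered cell and EV libraries deviated together at −0.06 in the control, 0.06 in the knockdown and 0.02 in the knockout line, so the numbers were not taken as pairs. With a replicate block 112 were called, 44 higher and 68 lower, and 101 on the 4 libraries alone, where let-7i-5p was 0.10, miR-26a-5p 0.04 and miR-29a-3p 0.04.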

Other observations

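Other families abundant in tumour cells had few called members, against 12% called lower and 7.32% higher over all tested miRNAs. Of 21 tested strands of the miR-17-92 cluster and its paralogs, which promote cell cycle entry, 2 were called lower and none higher, with a median log2 change of −0.25 against −0.11 over all tested. miR-92a-3p was lower by TMM scaling (−0.60, SE 0.12), where library totals move every change up by 0.47. miR-17-5p (−0.25) and miR-20a-5p (−0.07) were not called. None of 7 tested miR-29 strands, repressors of collagen genes, was called, and miR-29a-3p stood at 12700 CPM in cells and 16460 in EVs. None of 14 strands of the X-linked cluster of miR-532, miR-500 and miR-660 was called, with a median of 0.20. Of the miR-26 family, miR-26a-5p was at −0.09 and the passenger miR-26a-2-3p was called lower, with 88 counts in cells and none in EVs.

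The imprinted cluster at 14q32 was nearly silent in this line. Its 92 entries, tested or not, summed to 2.22 and 1.59 CPM in knockdown cells and to 36.4 and 41.1 CPM in EVs, against 1972 and 1861 CPM in control EVs. Of the 38 tested strands 2 were called higher in knockdown EVs on few counts, against 7.32% called higher over all tested. miR-379-5p had 3 counts in each fraction, a pooled ratio of 18.8 with a 95% exact binomial counting interval of 2.52 to 140. miR-127-3p had no count in cells and 2 in EVs, both in the first library, and was no longer called without it. All 62 placental C19MC entries summed to 367 and 354 CPM in cells and 298 and 194 in EVs. Of 11 tested strands 1 was called lower, miR-516a-5p (−0.94, SE 0.22), against 12% called lower over all tested.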
